A study of Mus musculus with 19 samples.

Results

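The peaks described here are the chromatin positions at which the protein SPEN was called in mouse spermatocytes after 4 h of recovery from heat shock and in no earlier state. They were taken from 4 peak lists of chromatin immunoprecipitation followed by sequencing (ChIP-seq). A peak of the 4 h list on chromosomes 1 to 19 was kept when it shared no base with any peak of 3 background lists and no base with any peak of the 3 earlier spermatocyte lists. Of 9101 autosomal peaks in the 4 h list, 7482 met this rule, out of 80795 peaks in the 19 lists of the series.

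All cells came from testes of adult male FVB/N mice aged 10 to 16 weeks, and the spermatocyte population was enriched to at most 80%, so other testicular cells were present. The 4 spermatocyte groups were untreated cells kept at 32 °C, cells heated at 43 °C for 30 min, and cells heated in the same way that then recovered at 32 °C for 2 h or 4 h. Precipitation used a rabbit polyclonal antibody against an internal part of SPEN. The background lists were an input from spermatocytes, an input from mixed testicular cells and an IgG precipitation, each labelled as a mix, and the last pair came from testicular cells rather than spermatocytes. Each library combined 5 to 6 precipitations of chromatin sheared to 100 to 500 bp, so every condition had 1 library and no spread between replicates can be given. The lists give no numbers of reads, so the depth of each library is unknown. A peak list can be longer because more reads were sequenced as well as because more of the genome was bound, and these cannot be told apart here.

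SPEN is a large nuclear protein that binds RNA and recruits corepressor complexes with histone deacetylases. It represses Notch target genes together with the DNA-binding protein RBPJ, it is a cofactor of nuclear receptors, and it is needed for silencing of the X chromosome by Xist RNA. Spermatocytes are the male germ cells that pass through meiosis. They are sensitive to heat, and they silence retrotransposons such as the LINE-1 subfamilies named L1Md and the intracisternal A particle (IAP) elements, an endogenous retrovirus family of rodents, partly through the piRNA pathway.

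The peaks on promoters can be shown on the reference sequence. Shown here are the 250 bases before the transcription start site (TSS) of 6 genes with a promoter peak found only at 4 h, 5 of them among the highest-scoring promoter peaks and 1, Tex12, a meiotic gene. They are set side by side because they differ widely in base composition. Sequences are from RefSeq on GRCm38.p6, the assembly of mm10, written 5′ to 3′ on the strand of the gene, and capitals mark the bases under the peak. The reference is not from the FVB/N strain.
Gm21190 (chr5:15529223-15529472, minus strand): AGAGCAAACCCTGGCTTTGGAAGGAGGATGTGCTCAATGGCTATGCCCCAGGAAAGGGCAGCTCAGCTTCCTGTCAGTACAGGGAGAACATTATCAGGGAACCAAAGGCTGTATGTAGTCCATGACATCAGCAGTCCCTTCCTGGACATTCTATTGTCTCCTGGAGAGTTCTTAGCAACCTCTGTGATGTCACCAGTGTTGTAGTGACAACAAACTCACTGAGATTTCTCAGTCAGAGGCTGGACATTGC
Cd244 (chr1:171558943-171559192, plus strand): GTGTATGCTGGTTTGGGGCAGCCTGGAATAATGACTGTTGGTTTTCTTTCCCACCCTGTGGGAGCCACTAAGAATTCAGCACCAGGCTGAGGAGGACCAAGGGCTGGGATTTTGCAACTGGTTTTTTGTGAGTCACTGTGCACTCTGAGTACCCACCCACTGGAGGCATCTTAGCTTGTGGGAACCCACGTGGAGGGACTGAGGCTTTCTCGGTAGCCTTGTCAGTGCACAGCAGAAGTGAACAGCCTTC
Psat1 (chr19:15925060-15925309, minus strand): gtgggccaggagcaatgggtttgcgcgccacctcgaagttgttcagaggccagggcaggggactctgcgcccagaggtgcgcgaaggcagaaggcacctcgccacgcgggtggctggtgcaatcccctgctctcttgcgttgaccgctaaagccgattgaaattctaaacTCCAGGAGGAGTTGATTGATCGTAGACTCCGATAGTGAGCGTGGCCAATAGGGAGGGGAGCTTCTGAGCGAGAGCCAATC
H2-D1 (chr17:35262844-35263093, plus strand): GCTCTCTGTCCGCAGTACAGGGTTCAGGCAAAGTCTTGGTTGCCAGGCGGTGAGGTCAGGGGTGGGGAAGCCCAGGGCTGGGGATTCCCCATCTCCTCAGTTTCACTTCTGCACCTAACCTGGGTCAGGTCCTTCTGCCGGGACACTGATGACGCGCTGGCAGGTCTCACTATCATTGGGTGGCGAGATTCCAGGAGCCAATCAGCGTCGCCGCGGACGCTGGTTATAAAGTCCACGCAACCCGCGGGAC
Ddc (chr11:11890409-11890658, minus strand): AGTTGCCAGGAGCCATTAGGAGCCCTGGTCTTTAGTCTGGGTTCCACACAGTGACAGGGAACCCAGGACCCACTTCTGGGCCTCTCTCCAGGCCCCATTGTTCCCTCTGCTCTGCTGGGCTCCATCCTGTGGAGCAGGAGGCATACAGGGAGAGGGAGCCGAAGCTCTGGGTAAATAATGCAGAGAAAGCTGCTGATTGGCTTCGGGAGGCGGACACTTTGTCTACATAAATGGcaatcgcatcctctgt
Tex12 (chr9:50561269-50561518, minus strand): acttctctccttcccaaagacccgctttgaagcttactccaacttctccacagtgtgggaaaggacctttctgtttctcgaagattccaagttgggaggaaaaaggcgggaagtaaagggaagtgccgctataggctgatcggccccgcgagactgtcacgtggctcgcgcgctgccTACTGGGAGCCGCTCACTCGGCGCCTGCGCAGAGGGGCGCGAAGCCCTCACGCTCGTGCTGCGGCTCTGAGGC
Gm21190, a predicted protein-coding gene, had all 250 bases under the peak with 49.2% G+C and 0 CpG dinucleotides. H2-D1, a classical class I histocompatibility gene, was also covered over its 250 bases, with 60.8% G+C and 14 CpGs. Tex12, a component of the central element of the synaptonemal complex, had 73 bases under the peak, with 72.6% G+C and 9 CpGs.

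Spermatocytes had few SPEN peaks outside background in the first 3 states and many at 4 h. On the autosomes, 352 peaks lay outside background in untreated cells, 345 after 30 min at 43 °C, 297 after 2 h of recovery and 7748 after 4 h. Outside background, the 4 h list thus held 22.5 times as many peaks as the median of the other 3. Before background positions were removed, the autosomal lists held 1529, 1533, 1450 and 9101 peaks in the same order. The number of peaks at background positions was nearly the same in all 4 lists, at 1177, 1188, 1153 and 1353 in the same order, and at 4 h it was 1.15 times the median of the earlier states. Peaks at background made up 77.0%, 77.5% and 79.5% of the earlier lists and 14.9% of the 4 h list. Peaks found in that state only numbered 215, 161, 177 and 7482.

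**Figure D1:**
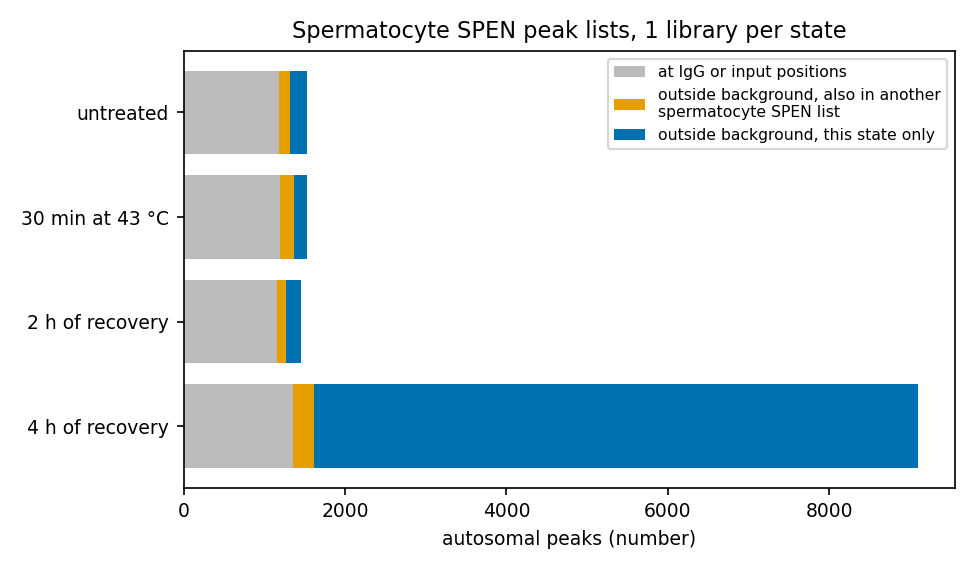
Number of autosomal peaks in each spermatocyte SPEN list (x axis), with 1 library per state (y axis) and colours for peaks at IgG or input positions, peaks outside background that another spermatocyte SPEN list also held, and peaks of that state only. The grey segments differ little in length (1153 to 1353 peaks), whereas the blue segment holds 7482 peaks at 4 h and 161 to 215 in the other states.

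Few of the 7748 peaks at 4 h had been called before. Of these, 266 (3.43%, exact 95% interval 3.04 to 3.86) shared a base with a peak of an earlier list, 208 with 1 earlier list, 46 with 2 and 12 with all 3. Intervals here and below are exact Clopper-Pearson intervals and cover counting error only. In the other direction, 96 of 352 untreated peaks (27.3%, 22.7 to 32.2) and 95 of 297 peaks at 2 h (32.0%, 26.7 to 37.6) were found again at 4 h, and 153 of 345 peaks of the 30 min state (44.3%, 39.0 to 49.8). Taken in pairs, the earlier lists shared between 10.5% and 16.8% of their peaks with each other. A longer list has more peaks to share, and these shares were not corrected for that. Among the 345 highest-scoring 4 h peaks outside background, as many as in the median earlier list, 23.5% (19.11 to 28.31) had been called earlier. That share counts a peak of any earlier list and covers only the strongest 4 h peaks, so it cannot be set against the pairwise shares.

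Distances from the peaks found only at 4 h to earlier peaks were counted as well. An earlier peak centre lay within 1000 bp of 108 of the 7482 (1.44%, 1.19 to 1.74), within 10000 bp of 638 (8.53%) and within 100000 bp of 1725 (23.1%). Overlapping peaks had been removed by the selection, which lowers the shares at short distance, and no expected share was computed. The peaks found only at 4 h were weaker than the shared peaks. The score, the authors' value from their peak caller, ranks peaks within a list and started at 50 in every list. Its median was 58.7 for the peaks found only at 4 h (quartiles 53.1 and 69.9), 89.1 for the 266 shared peaks and 143.5 for the 1353 at background. A score of 100 or more was reached by 541 (7.23%), 111 (41.7%) and 878 (64.9%) of them. In each earlier list only 1 or 2 peaks of that state only reached 100. The median width was 179 bp for the peaks found only at 4 h and 158 to 161 bp for those of the earlier states.

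Repeats held 4342 of the 7482 peaks (58.0%), by the HOMER annotation deposited by the authors, and 3140 lay outside repeats. LINE elements held 2140 peaks (28.6%, 27.6 to 29.6) and LTR elements 1557 (20.8%, 19.9 to 21.7), while SINE elements, the short non-autonomous retrotransposons, held 212 (2.83%, 2.47 to 3.23). For all repeats together, the shares of the earlier states were 74.4%, 60.9% and 59.3%. LINE elements held 31.2%, 20.5% and 22.6% in those states, and 22.0%, 21.3% and 26.6% in IgG, testicular input and spermatocyte input. LTR elements held 9.77%, 21.1% and 22.0% in the earlier states. In the same background lists they held 21.2%, 20.0% and 10.7% (7.98 to 14.07). The LTR share at 4 h was thus close to that of IgG and testicular input and above that of the spermatocyte input. Most of the LINE peaks were in young mouse L1Md elements, with 1633 peaks (21.8%, 20.9 to 22.8). L1Md_T alone had 779 peaks (10.4%), L1Md_A 490 (6.55%), L1Md_F and its numbered subfamilies 304 (4.06%) and L1Md_Gf 60 (0.802%). IAP elements had 745 peaks (9.96%, 9.29 to 10.7), of which 472 lay in the internal part and 226 in the flanking long terminal repeats.

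Of the families compared next, only SINE elements had an interval at 4 h apart from those of all 3 earlier states. With 1 library per state no difference could be tested. IAP elements held 1 of 215 peaks found only in untreated cells (0.465%, 0.0118 to 2.56), 11 of 161 at 30 min (6.83%, 3.46 to 11.9) and 14 of 177 at 2 h (7.91%, 4.39 to 12.9), so the interval at 4 h overlapped those of both heated states and lay above that of untreated cells. SINE elements went the other way. They held 12.6%, 11.2% and 10.2% of the peaks of the earlier states, each with an interval whose lower end was above the 3.23% upper end at 4 h. L1Md elements held 21.4% of the untreated peaks, next to the 21.8% at 4 h, and 11.2% and 12.4% at 30 min and 2 h. Simple repeats and low-complexity sequence held 18.6% of the untreated peaks, 6.21% (3.02 to 11.1) at 30 min, 4.52% (1.97 to 8.71) at 2 h and 3.66% (3.25 to 4.11) at 4 h, so the 4 h value was within the intervals of both other heated states.

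The background lists bear on the same families. Among peaks of the IgG, testicular input and spermatocyte input outside the other background lists, IAP elements held 6.63%, 5.01% and 1.17%, L1Md_T 5.57%, 6.46% and 6.07%, and SINE elements 7.16%, 5.80% and 4.91%. The L1Md_T interval at 4 h (9.73 to 11.1) lay above those of all 3 background lists. The IAP share at 4 h was also above all 3, but its interval (9.29 to 10.7) overlapped that of IgG (4.34 to 9.63). The SINE share was below all 3, with an interval (2.47 to 3.23) that overlapped that of the spermatocyte input (3.06 to 7.40). Among the 4 h peaks at background positions the order was different, with 0.89% in IAP elements, 2.59% in L1Md_T and 8.94% in SINE elements.

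**Figure D2:**
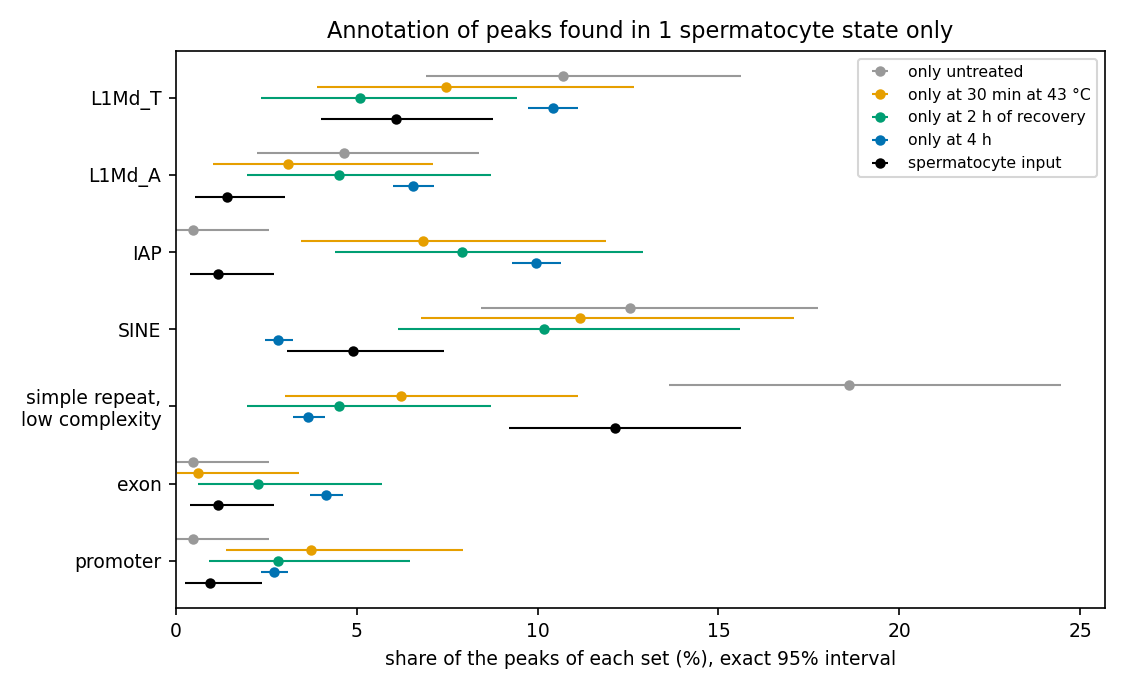
Share of peaks by annotation (x axis, percent, points with exact 95% intervals) for the peaks of each spermatocyte state only and for the spermatocyte input outside the other background lists. The 4 h points have the narrowest intervals, and they lie lowest for SINE elements (2.83%) and highest for IAP elements (9.96%) and exons (4.14%).

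The repeat peaks fell into 365 subfamilies, of which 146 had a single peak and the 12 most frequent had 2427 peaks (55.9% of the 4342). Besides L1Md_T and L1Md_A these were IAPEz-int with 434 peaks, L1Md_F2 with 188, L1Md_F with 81, IAPLTR1a_Mm with 79, MTA_Mm-int with 73, IAPLTR2_Mm and L1_Mus3 with 64 each, L1Md_Gf with 60, Lx with 58 and RMER1B with 57. IAPEz-int is the internal part of the IAP provirus and the IAPLTR names are its terminal repeats, whereas MTA_Mm belongs to the MaLR group. IAPEz-int had 1, 7 and 13 peaks in untreated cells, at 30 min and at 2 h. These were 0.465%, 4.35% and 7.34% of those peaks, against 5.80% at 4 h, so the share at 2 h was above that at 4 h. IAPLTR2_Mm and RMER1B had 0 in all 3. A count of 0 among so few peaks limits little: with 215, 161 and 177 peaks, the upper end of the interval for 0 was 1.70%, 2.27% and 2.06%.

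Scores within these subfamilies also differed. The median was 62.0 in L1Md_T, 60.8 in L1Md_A and 59.4 in IAPEz-int, with 80, 42 and 21 peaks at 100 or more, against 53.2 in RMER1B. The strongest L1Md_T peak, with a score of 271, lay in an intron of Fgd4, a guanine nucleotide exchange factor for the GTPase Cdc42 (chr16:16507564-16508163). The strongest IAPEz-int peak scored 152 and lay in an intergenic stretch of chromosome 11 far from any TSS (chr11:15286610-15286976, nearest gene Pom121l12). A peak in a young repeat carries a position only as far as its reads could be placed among near-identical copies, and how such reads were treated is not given in the sources used here.

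Score strata separated the families. There were 6036 peaks (80.7%) from 50 to under 75, 905 (12.1%) from 75 to under 100, 494 (6.60%) from 100 to under 200 and 47 (0.628%) at 200 and above. L1Md_T held 9.36% (8.64 to 10.1), 14.8% (12.6 to 17.3) and 15.6% (12.50 to 19.09) of the first 3 strata and 3 of the 47 in the top one. IAP elements held 10.3%, 9.83%, 6.88% and 0 of 47, which allows a share of up to 7.55%. SINE elements held 3.28%, 1.22%, 0.405% and 1 of 47. Exons held 4.47%, 2.87%, 2.83% and 0 of 47, and promoters 2.72%, 3.09%, 2.02% and 0 of 47. The weakest stratum thus held the highest shares of SINE elements and exons, and the next ones the highest of L1Md_T. Width grew with score, with medians of 170, 232, 320 and 600 bp.

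**Figure D3:**
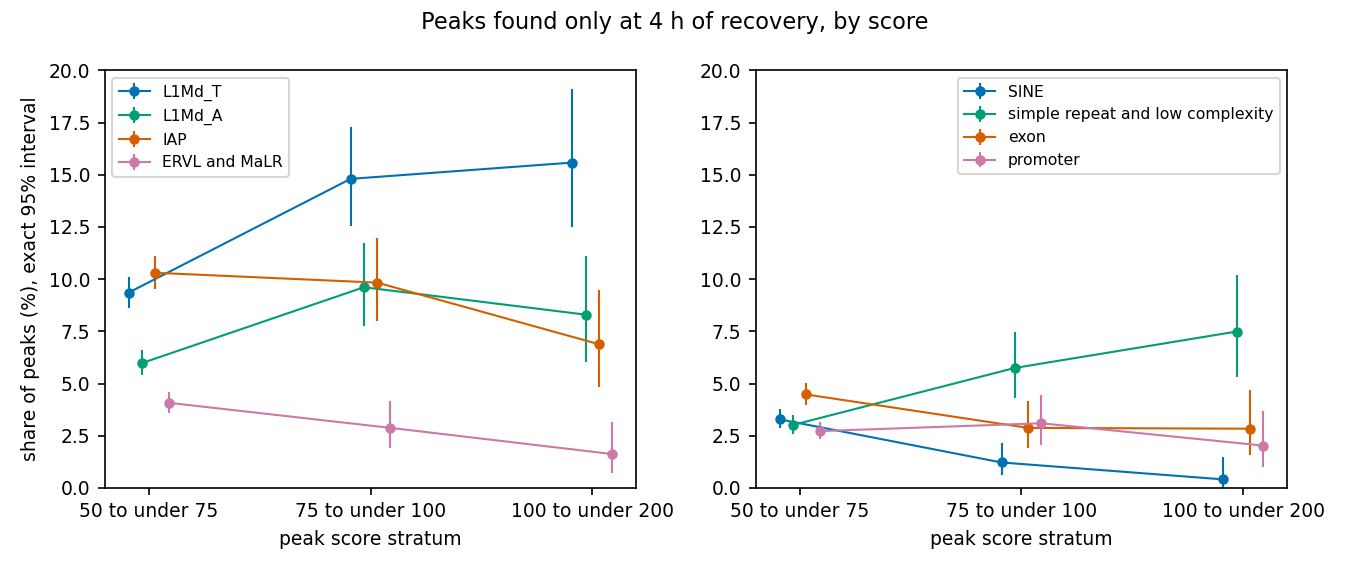
Share of the peaks found only at 4 h (y axis, percent, with exact 95% intervals) in each annotation, across 3 score strata (x axis), repeats with long elements on the left and other annotations on the right. The L1Md_T share goes from 9.36% to 15.6% with score, and the SINE share from 3.28% to 0.405%.

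Near genes, the peaks were densest just downstream of the TSS. Of the 7482 peaks, 843 (11.3%, 10.56 to 12.01) were within 5 kb of a TSS and were assigned to 795 genes, 709 of them protein-coding, 60 non-coding RNA genes and 21 pseudogenes. Positions within 5 kb of a RefSeq TSS make up 9.81% of the autosomes and held 12.7% (11.98 to 13.50) of the peak centres by RefSeq's own coordinates. By the same RefSeq measure the share was 12.6%, 16.8% and 11.3% for the peaks of the earlier states and 12.5% for the 4 h peaks at background. It was 11.1% for IgG, 14.4% for testicular input and 9.81% for spermatocyte input, so by RefSeq the 4 h value lay among the background values. In the authors' annotation the share was 6.63% (to 9.63) for IgG, 6.54% (to 9.32) for spermatocyte input and 8.72% (to 10.35) for the 4 h peaks at background. The 4 h interval lay above these and overlapped that of testicular input (9.75%, to 12.1). It also overlapped those of the earlier states (7.91%, 13.7% and 7.91%). Within 500 bp there were 346 peaks (4.62% of the 7482), 85 upstream and 261 downstream (75.4% downstream, 70.5 to 79.9). The share within 500 bp was 0.796%, 1.45% and 0.935% in IgG, testicular input and spermatocyte input. It was 1.26% for the 4 h peaks at background. The downstream share was 77.4% (76.0 to 78.8) of 3489 such peaks in the untreated testicular list of the same antibody, 13 of 17 (76.5%, 50.1 to 93.2) among the 4 h peaks at background and 3 of 4 in the spermatocyte input. In the earlier spermatocyte states, 1, 4 and 2 peaks of that state only lay so close to a TSS (0.465%, 2.48% and 1.13%).

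**Figure D4:**
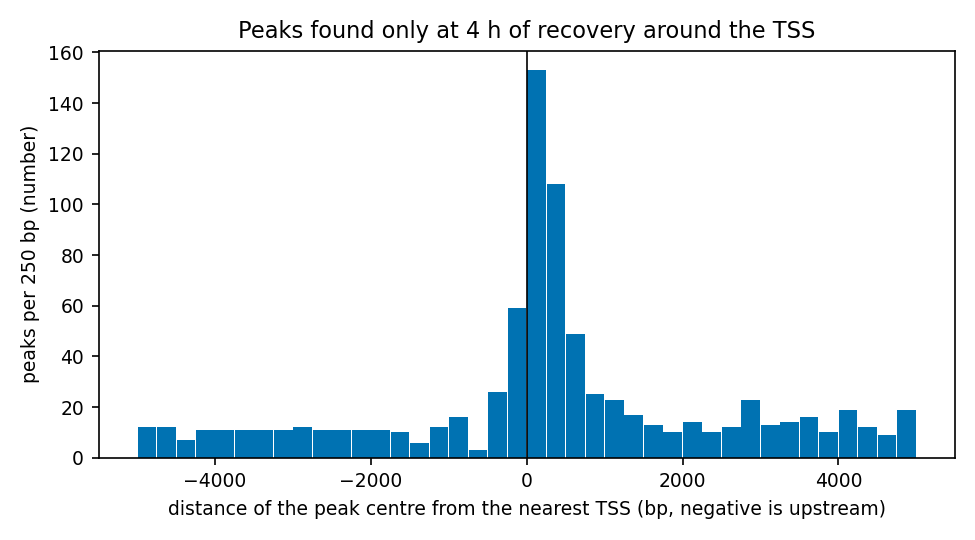
Number of peaks found only at 4 h per 250 bp (y axis) by the distance of the peak centre from the nearest TSS (x axis, bp, negative upstream). The counts are highest just downstream, where 261 peaks lie within 500 bp, against 85 within 500 bp upstream.

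Of 20665 autosomal protein-coding genes, 706 (3.42%) had a peak found only at 4 h within 5 kb of the TSS, against 11 (0.0532%), 17 (0.0823%) and 11 (0.0532%) for the peaks of untreated cells, 30 min and 2 h. Of the genes with a peak of an earlier state only, 1 of 16 in untreated cells (6.25%) was among the 795 at 4 h (0.126%), 5 of 22 at 30 min (22.7% and 0.629%) and 0 of 14 at 2 h. Peaks called in both states had been removed by the selection, so these counts are of genes with different peaks and do not measure how far the states share genes. The 5 were 4930572O03Rik, Cd244, Gm13247, Rn4.5s and Speer8-ps1, and Rn4.5s was also the gene in common with untreated cells. At the edge of the distance limit, the last peak inside was assigned to Zc2hc1a at 4998 bp with a score of 90.3, and the first outside to Olfr170 at 5017 bp with a score of 70.7.

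The genes with the strongest peaks within 5 kb were a mixed set. Mcm10, a replication initiation factor, had a peak with a score of 264 in intron 2, 2311 bp downstream of its TSS (chr2:5009701-5010366). Adgrf2, an adhesion G protein-coupled receptor, had a peak of 242 at -2088 bp, upstream of the TSS (chr17:42744039-42744496), and the core histone gene Hist4h4 a peak of 199 in its single exon (chr6:136803991-136804420). Akr1e1, an aldo-keto reductase, followed with 198 in intron 2, and Gm13034, a pseudogene, with 197 at its promoter. Ndufc2, a subunit of respiratory complex I, had a peak of 165 in exon 1, and Ttc14 one of 137 in exon 1. Arpc5, a subunit of the Arp2/3 actin-nucleating complex, had a peak of 139 in intron 2. The other genes of the 20 highest were 2610005L07Rik, BC049715, Prl2c4, 6820431F20Rik, Usp17le, Speer8-ps1, Gm1979, Gm21190, Gm13139, Vcpkmt, Mir6388 and Hsbp1l1, with scores from 122 to 194. Several belong to families of near-identical copies (Prl2c4, Usp17le, Speer8-ps1 and the Gm genes), where reads may come from another copy. Hist4h4 has close copies in the other histone H4 genes as well.

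Promoters, in HOMER's default definition from 1 kb before to 100 bp after the TSS, held 202 peaks (2.70%, 2.34 to 3.09) at 199 genes, 179 of them protein-coding. By RefSeq coordinates this window covers 1.26% of the autosomes and held 2.94% (2.57 to 3.35) of the peak centres. The same window held 2.90% (1.83 to 4.36) of the testicular input peaks, 2.51% (1.75 to 3.49) of the 4 h peaks at background, 2.10% of the spermatocyte input and 1.86% of the IgG peaks, with intervals that overlap the one at 4 h. Untreated cells had 0.465% of their own peaks in promoters, 30 min 3.73% (1.38 to 7.93) and 2 h 2.82% (0.923 to 6.47), and the spermatocyte input 0.935%, in the authors' annotation. The interval at 4 h therefore lay within those of both heated states. By the same annotation promoters held 0.796% (to 2.31) of the IgG peaks, 1.18% (to 1.91) of the 4 h peaks at background and 1.32% (to 2.41) of the testicular input. The 4 h interval lay above those of IgG and of the 4 h peaks at background. It overlapped those of testicular input and spermatocyte input (to 2.38). Promoter peaks were weak, with a median score of 57.9, and 38 of the 202 reached 75 and 10 reached 100.

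The highest promoter peaks were those of Gm13034 (score 197), Speer8-ps1 (143), Gm21190 (133), the zinc finger gene Zfp934 (116), Cd244 (115) and Psat1 (113). Cd244 encodes a receptor of natural killer cells, and Psat1 an enzyme of serine synthesis. The promoter of 9030025P20Rik scored 111, that of Gm13154 106, and that of Erp44, a chaperone of the early secretory pathway, 104. Mup9, a major urinary protein gene, scored 101 and Raet1a 97.7. The set ended with Gm3417 at 97.7, H2-D1 at 97.3, Ddc at 94.2 and the promoter of a Nrxn3 transcript at 93.4. Ddc encodes aromatic amino acid decarboxylase, and Nrxn3 a presynaptic adhesion protein. In the printed sequences the H2-D1 peak covers the whole window, and the Ddc peak, at chr11:11890425-11890667, covers 234 of the 250 bases.

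Base composition of the promoters under these peaks was richer in CpG than that of promoters in general. RefSeq windows of 300 bases, 250 before and 50 after the TSS, lay under a peak found only at 4 h in 192 of 31365 cases. Their median G+C was 59.5% and they had a median of 18 CpGs, against 53.0% and 7 over all windows. The 1859 windows under a peak of the untreated testicular list had 65.0% and 25. Besides promoters and exons, 116 peaks (1.55%, 1.28 to 1.86) were annotated to a CpG island. The earlier states had 0.465% (to 2.56), 0.621% (to 3.41) and 0% (to 2.06), intervals that all hold the 4 h value.

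Sequence motifs were searched on both strands of the same windows. The letters GAANNTTC, a pair of the units that heat shock factors bind, were in 12 of the 192 windows (6.25%, 3.27 to 10.7) and in 7.87% of all windows. The 3-unit form, in which another GAA follows after NN and which contains the shorter one, was in 1 window (0.521%) and in 0.619% of all. GTGGGAA, the core of the RBPJ motif, was in 9 windows (4.69%, 2.17 to 8.71) and in 6.33% of all, and TGACGTCA, the cyclic AMP response element, in 8 (4.17%, 1.82 to 8.04) and in 1.83% of all. Under untreated testicular peaks TGACGTCA was in 3.28% of windows. The 1 window with the 3-unit heat shock form was that of Tex12, where it lies upstream of the bases under the peak, and both Tex12 and Cd244 hold GTGGGAA. A match is a description of the letters and no evidence of binding.

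Gene bodies held 2733 peaks (36.5%, 35.4 to 37.6) in the authors' annotation, 2261 of them in introns and 310 in exons. By that annotation the gene body share was 33.0%, 26.7% and 28.8% for the earlier states and 35.7% for the 4 h peaks at background. For IgG, testicular input and spermatocyte input it was 29.4%, 28.1% and 24.1%. Of the intronic peaks, 658 were in a first intron, 500 in LINE elements, 362 in LTR elements and 1122 outside repeats. Introns held 31.2%, 23.6% and 24.9% of the peaks of untreated cells, 30 min and 2 h, near the 30.2% at 4 h. The RefSeq gene bodies span 48.3% of autosomal positions and held 50.6% (49.5 to 51.8) of the peak centres. By this RefSeq measure the share was 54.4%, 49.7% and 49.2% for the earlier states and 50.4% for the 4 h peaks at background. For IgG, testicular input and spermatocyte input it was 52.3%, 48.4% and 47.2%, so the 4 h value lay among these.

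Exons held 310 peaks (4.14%, 3.70 to 4.62) in 299 genes, against 1, 1 and 4 peaks in the earlier states (0.465%, 0.621% and 2.26%) and 1.06%, 0.659% and 1.17% in IgG, testicular input and spermatocyte input. The interval at 4 h lay above those of untreated cells (to 2.56%) and 30 min (to 3.41%) and inside that of the 2 h state (0.619 to 5.68). By position, 39 peaks were in the first of several exons, 167 in internal exons, 75 in the last of several and 29 in genes of 1 exon, and 52 were within 500 bp of the TSS. Their median score was 56.8, and 14 reached 100. Sycp1, which encodes the transverse filament protein of the synaptonemal complex, had a peak of 91.4 in exon 2 of 33, 486 bp from its TSS (chr3:102935518-102935711).

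Peaks were spread thinly over many host genes. The centres of 2554 peaks lay inside the RefSeq gene that HOMER named, and these were 1958 genes, 1552 with 1 peak, 406 with 2 or more and 121 with 3 or more. The median host was 83.0 kb long, against 17.5 kb for all protein-coding genes. A longer gene has more positions for a peak, and the hosts were not limited to protein-coding genes. No preference for long genes was therefore read from these lengths. Long genes were among those with most peaks: Gpc6, a cell-surface glypican of 1055 kb, had 8, while Arhgap26, Dlgap2, Fam155a and Fbxl17 had 5 each in 458 to 775 kb. These were named in alphabetical order from the genes tied at 5 peaks, which also included Gm21119, Gm38667, Ptprd, Rarb and Znf41-ps, in 32.3 to 2271 kb. Another kind were short hosts in repeated gene clusters, Zfp982 with 8 peaks in 73.0 kb, 2610005L07Rik, Cyp2c53-ps and Gm15319 with 6 each in 25.5 to 45.5 kb, and 6820431F20Rik with 5 in 29.1 kb. In Gpc6 5 of the 8 peaks were in LTR and 2 in LINE elements, and in Cyp2c53-ps all 6 were in LTR elements.

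The strongest peaks were concentrated in a few megabases. With 1 Mb windows along the chromosomes, 2175 windows held at least 1 of the 7482 peaks, with a median of 3. The 18 windows with 20 or more held 683 peaks (9.13%), and 181 of the 541 peaks of 100 or more (33.5%) and 27 of the 47 of 200 or more. The window at 20 to 21 Mb of chromosome 8 alone had 92 peaks, that at 147 to 148 Mb of chromosome 4 had 72, and those at 66 to 67 and 65 to 66 Mb of chromosome 13 had 62 and 49. Of the 12 highest-scoring peaks, 9 were on chromosome 8 between 19 and 21 Mb, led by a peak of 559 at -5126 bp from the TSS of Gm21119 (chr8:19723336-19725564). The other 3 were in intron 1 of Intu, a ciliogenesis gene, at 330, on chromosome 12 at 317 in an L1_Mus3 element, and on chromosome 13 at 292. These windows also held background peaks, 52 at 20 to 21 Mb of chromosome 8 and 19 at 147 to 148 Mb of chromosome 4 within the 4 h list. Per chromosome the density ran from 2.53 peaks per Mb on chromosome 10 to 4.45 on chromosome 13, with 3.04 over all autosomes.

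Groups of genes tied to the cell type or to heat were at about the background share. The 13 lists held 489 autosomal genes, of which 17 (3.48%) had a peak found only at 4 h within 5 kb, next to the 3.42% of all protein-coding genes, and no difference was read from it. Single lists were small and lay on both sides, such as 1.82% for the heat shock list and 6.06% for the apoptosis and p53 list. Of 55 heat shock proteins, co-chaperones and heat shock factors, 1 had a peak, Dnajb2 at 54.7 in intron 4. Of 33 apoptosis and p53 genes there were 2, the initiator caspase Casp9 at 61.6 and the p53 target Zmat3 at 68.1. Neither list had a peak found only in an earlier state. Of 39 genes of the SPEN family, its corepressors and partners, 0 had a peak, of 41 nuclear receptors 1, Pparg at 60.8, and of 43 Notch pathway genes 2, the receptor-cleaving protease Adam10 at 59.0 and the ubiquitin ligase Itch at 54.0.

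Germ cell genes with a peak were also few. Of 60 genes of meiotic prophase and recombination, 2 had a peak, Sycp1 at 91.4 and Tex12 at 51.9, and of 45 piRNA and retrotransposon-silencing genes 1, the histone H3 lysine 9 methyltransferase Ehmt1 at 56.8. Spermatogonial genes had 0 of 25 and spermatid genes 2 of 47, the sperm calcium channel subunit Catsper3 at 52.7, in an IAPEz-int element, and Actl7b at 53.7. Among markers of other testicular cells, 1 of 20 Sertoli cell genes (Abcb1a, 60.3) and 2 of 25 Leydig, peritubular, endothelial and blood genes (Acta2, 60.0, and Cdh5, 62.7) had a peak, which is 5% and 8% of those lists, against 3.33%, 2.22%, 0% and 4.26% of the germ cell lists in the order above, with no test made. Peaks do not measure expression, so the labelled enrichment in spermatocytes could not be checked from markers. Among constitutively expressed genes, Eef1a1 had a peak at 53.4 and Tuba1a at 51.2.

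Gene families named by symbol gave shares on both sides of the background. Olfactory receptor genes (Olfr) had 21 of 1104 (1.90%, 1.18 to 2.89) and vomeronasal receptor genes (Vmn) 4 of 354 (1.13%, 0.309 to 2.87). Zinc finger genes named Zfp had 22 of 388 (5.67%, 3.59 to 8.46), a count that was 14 (3.61%) outside the 18 dense windows, where all protein-coding genes together had 3.30%. Genes with Gm numbers had 30 of 967 (3.10%) and Rik genes 13 of 391 (3.32%). A pair of families was picked after the values were seen and only describes them. Of 38 genes of the H2 histocompatibility complex, 9 had a peak (23.7%, 11.4 to 40.2), among them H2-D1 and H2-K1, with H2-Q10 highest at 120, and of 91 ribosomal protein genes 9 (9.89%, 4.62 to 17.9), with Rpl27a highest at 83.3. Members of both families resemble one another or have processed copies, so single genes in them are uncertain.

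About 33.2% of the peaks found only at 4 h in spermatocytes were positions called in untreated testicular cells with the same antibody. The untreated testicular list, with 25732 autosomal peaks outside background, shared a base with 2487 of the 7482 (33.2%, 32.2 to 34.3), which is 9.67% of that list. As a share of the other list, the overlap was 26.4% for testicular cells after 30 min at 38 °C, 14.5% to 21.1% for the 3 lists of the N-terminal antibody and 7.42% for the same treatment, so by that measure the untreated list of the internal antibody was not the one most shared. The testicular list of the same treatment, 43 °C with 4 h of recovery, held 31 (0.414%) of them, and the 10 remaining testicular SPEN lists 0.281% to 3.84%, the most after 30 min at 38 °C. These lists are much shorter, with 313 to 1072 peaks outside background. The peaks found in only 1 of the earlier spermatocyte states were in the untreated testicular list in 8.37%, 21.1% and 13.6% of cases.

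The overlap with untreated testicular cells grew with score and differed between families. It was 25.6% (24.5 to 26.7) of the peaks from 50 to under 75, 57.0% (53.7 to 60.3), 77.5% (73.6 to 81.1) and 45 of 47 (95.7%, 85.5 to 99.5) in the next strata. L1Md_T peaks were found there in 61.6% (58.1 to 65.0) and L1Md_A peaks in 53.9%, IAP peaks in 34.8% and peaks in SINE elements in 19.8%. Peaks in the ERVL and MaLR group were found there in 14.3%. Promoter peaks were shared in 25.7% (19.9 to 32.3) and exon peaks in 21.0% (16.6 to 25.9), and 67.9% of the peaks in the dense windows were, against 29.8% elsewhere. At 200 and above, then, nearly all the peaks absent from the earlier spermatocyte lists were also called in unheated testicular cells. A wider peak has more bases to share, and the median width went from 170 bp in the weakest stratum to 600 bp in the strongest. Of the 47 strongest peaks, 27 lay in the dense windows. The overlap was not corrected for width or for these windows.

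**Figure D5:**
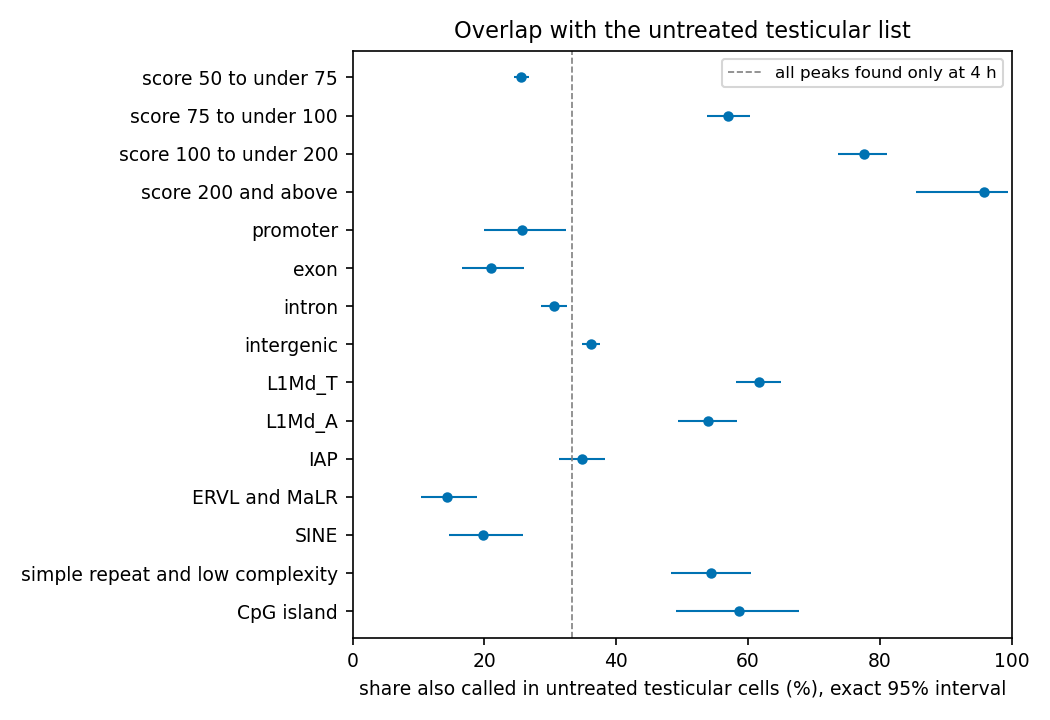
Share of the peaks found only at 4 h that share a base with a peak of untreated testicular cells (x axis, percent, with exact 95% intervals), by score stratum, gene annotation and repeat group (y axis), with the share of all 7482 peaks (33.2%) as a dashed line. The share goes from 25.6% in the weakest stratum to 95.7% in the strongest, and the ERVL and MaLR group (14.3%) and SINE elements (19.8%) lie lowest.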

How the data were processed

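SPEN ChIP-seq peak lists of spermatocytes in 4 states were analysed with the IgG and both input lists. Bowtie2, SAMtools and HOMER and the mm10 build are named by the submitters' processing notes, with versions not given in the sources used here. Peaks were called per library and carry MACS in their names, per the file headers; threshold and control were not stated there. The score of each peak, the repeat and gene annotation and the distance to the TSS are the authors' deposited values.

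Peaks on chromosomes 1 to 19 that shared 1 bp or more with a background peak were removed, and then those sharing 1 bp or more with any deposited peak of an earlier spermatocyte list. Both deposited copies of all 19 lists held the same peaks. Overlap code was tested on simulated data with known answers. Of 795 gene IDs within 5 kb, 792 matched the RefSeq table of GRCm38.p6, the assembly of mm10. Python 3.11.15, NumPy 2.4.6, pandas 2.3.3, SciPy 1.17.1 and Matplotlib 3.10.9 were used. With 1 library per condition nothing was tested between conditions.

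The members and lists were chosen with earlier results of these data known. Named genes are the 12 highest-scoring peaks, the 15 highest promoter peaks, the 20 genes with the highest peak within 5 kb, the 10 genes with most peaks in their body (ties in alphabetical order), every list member with a peak (1 gene, with the list counts that rest on it, is not reported here), and the 12 most frequent repeat subfamilies. No genome was used, so motifs were searched in RefSeq promoter windows in place of the planned windows around peak centres.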

Additional observations from a re-analysis of the deposited data

Results flagged for a closer look

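The change from untreated cells to 4 h of recovery went in opposite directions in the populations studied. In spermatocytes the number of autosomal peaks outside background went from 352 to 7748, a ratio of 22.0. In mixed testicular cells with the same antibody and treatment it went from 25732 to 418, a ratio of 0.0162. Each value rests on 1 library, the difference was not tested, and read depth is unknown for all 4 lists.

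The X chromosome, which the comparisons above leave out, held 272 peaks outside background at 4 h that no other spermatocyte SPEN list had, against 9 peaks found in the spermatocyte input alone and 11, 5 and 4 peaks found only in untreated cells, at 30 min and at 2 h. On the autosomes such peaks also numbered far more at 4 h, with 7482 against 215, 161 and 177 in the same earlier states. No gain particular to X was therefore read from these counts.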

How the results depend on the processing

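No paired analysis was possible because each condition had 1 library. Of 131 values under other settings, 93 stayed within the 95% interval of the reported share or within 1.5 times the reported count, and 38 did not.

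With scores of at least 75, then at least 100, in the spermatocyte lists, peaks found only at 4 h numbered 1578 and 641 and genes within 5 kb 152 and 62. The share of 4 h peaks in an earlier list was then 2.53% and 1.69%. The cut applied to the earlier lists too, so a strong 4 h peak called earlier below the cut counted as found only at 4 h. With the earlier lists uncut, 111 of the 652 peaks of 100 or more outside background at 4 h were in an earlier list. With the cut, gene bodies held 32.3% and 31.4%, LINE 33.4% and 32.6%, L1Md 26.6% and 23.7%, LTR 16.7% and 13.6%, IAP 7.86% and 5.30%, and SINE 1.20% and 0.936%. The promoter share was 1.87% at 100. With the 345 highest-scoring 4 h peaks, as many as the median earlier list, 264 were found only at 4 h, at 19 genes, and 23.5% were in an earlier list. Promoters then held 1.14%, LINE 31.4%, L1Md 19.7%, LTR 13.6%, IAP 5.30% and SINE 0.758%. At equal list length the share of 4 h peaks called earlier was thus 23.5% rather than 3.43%. The IAP interval (2.93 to 8.74) still lay above those of untreated cells and the spermatocyte input. The IAP share of 5.30% was then below the 6.83% at 30 min, the 7.91% at 2 h and the 6.63% in IgG. It was next to the 5.01% in testicular input, and its interval overlapped each of theirs. The IAP share at 4 h was therefore no longer above all 3 background lists.

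With background positions kept, 15.0% of 4 h peaks were in an earlier list, and with the spermatocyte input as the only background 6.88%. Leaving out each earlier library in turn gave 2.21% to 2.75%. Within 1000 bp and 10000 bp of the TSS there were 422 and 1233 genes. Over all chromosomes and contigs the L1Md share was 23.1%. Without the 1 Mb windows of 20 or more peaks, a setting chosen after the data were seen, gene bodies held 37.8% and L1Md 23.3%. A motif search over whole peaks was not run. Depth limits all counts: the files give no read totals.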

Other observations

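On the X chromosome, which is silenced in spermatocytes during meiosis, the peaks found only at 4 h lay in repeats more often than on the autosomes. Of the 272 peaks, 259 (95.2%, exact 95% interval 92.0 to 97.4) were in repeats, against 58.0% on the autosomes. L1Md elements held 155 (57.0%, 50.9 to 62.9) and IAP elements 61 (22.4%, 17.6 to 27.9), and gene bodies held 45 (16.5%, 12.3 to 21.5). SINE elements held 2. X peaks of the other lists were few but also often in LINE elements, with 6 of 11 found only in untreated cells, 2 of 5 at 30 min, 3 of 4 at 2 h and 4 of 9 in the spermatocyte input, next to 156 of 272 at 4 h. These intervals cover counting error only, and the content of each chromosome in these repeats was not measured.

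On X, 9 of these peaks lay within 5 kb of a TSS, at 8 genes. The highest were in intron 1 of Shroom4, an actin-binding protein gene, at a score of 132, and upstream of Magee2 at 112 in an L1Md_Gf element. Spaca5, an acrosomal protein gene, had 2 peaks in IAP sequence, at 56.6 and 53.1. Slc25a5, the gene of a mitochondrial adenine nucleotide carrier, had a promoter peak at 53.5. The highest peak of all on X scored 165 in an intergenic IAPEz-int element. The Y chromosome had 41 peaks found only at 4 h, against 3, 1 and 3 in the earlier states, beside 7482 against 215, 161 and 177 on the autosomes.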
